A study of Mus musculus with 6 samples.

Results

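ATP-binding cassette (ABC) genes were examined in cultured mouse myospheres. Members were the probe sets annotated with a single gene symbol that starts with Abc, a subfamily letter from a to g and a number, leaving out Abca1 and Abcc9. This gave 43 genes of the 18193 measured, read by 86 of 45265 probe sets, 61 on the Affymetrix chip MOE430A and 25 on its companion MOE430B. Of these genes 8 were read on both chips and 9 on MOE430B only. No member probe set carried several gene symbols.

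The cells came from hind-leg muscle of the male Balb/c mouse, number of animals not stated, were enriched by flow sorting for the surface antigen Sca1 and were grown for 4 days into myospheres, sphere-shaped clusters of cells, in neurocult medium with bf6f, LIF, B27 and EGF. RNA was taken at passage 1 from 2000000 cells and was described as small in amount. There was 1 condition, measured as replicates 1 to 3 on each chip, 6 arrays in all, with no second cell type, genotype or treatment. All 6 arrays carry 1 submitter sample number, so the spread between them may be technical, and limma's p-values measure only that spread. The labels give no animal age and mention no dye efflux sort, so side population cells were not measured apart from the rest.

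ABC proteins use ATP, bound at nucleotide-binding domains, to move molecules across membranes. ABCA members mostly carry lipids, ABCB and ABCC members carry drugs, peptides, bile components and conjugates, ABCD members carry fatty acids into peroxisomes, and ABCG members carry sterols and drugs. ABCE and ABCF proteins lack membrane domains and act in ribosome recycling and translation. Side population cells are recognised by their export of a Hoechst DNA dye, for which Abcg2 and, in the mouse, Abcb1a and Abcb1b are the best known carriers, and muscle was among the tissues in which such cells were described.

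The values are MAS5 signals, arbitrary units on a linear scale. Each was read against a background limit set on its own array, the 95th percentile of probe sets for genes foreign to muscle, such as odorant receptors, keratin-associated proteins and placental prolactins. There were 150 such probe sets on MOE430A and 44 on MOE430B. The limit averaged 809 on MOE430A, with 820, 785 and 822 on replicates 1, 2 and 3, and 2903 on MOE430B, with 3237, 2929 and 2542. A probe set is called above the limit here if each of the 3 replicate signals passed the limit of that array, and a gene is called above it if any of its probe sets was. In addition, limma's moderated test compared log2 signal with log2 limit over all probe sets of a chip, and a probe set was called higher or lower at an adjusted p under 0.05. Most background probe sets lie under the limit by construction, so a lower call says only that no signal above it was seen. Probe sets differ in affinity, so signals are not compared between genes.

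ABC genes were above the limit for 14 of 43, or 32.6%, against 36.1% of all measured genes, so their share lay near the background. The 14 were Abca8a, Abcb1a, Abcb4, Abcc1, Abcc4, Abcc5, Abcd3, Abce1, Abcf1, Abcf3, Abcg1, Abcg2, Abcg4 and Abcg8. For 11 of them at least 1 probe set was also higher by limma, the exceptions being Abca8a, Abcg4 and Abcg8. For 21 genes (48.8%) every probe set was lower than the limit by limma, against 43.8% of all measured genes, again a share near the background. The median of each gene's best log2 ratio to the limit was -0.68 over the ABC genes and -0.42 over all measured genes.

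On MOE430A 18 of 61 member probe sets were above the limit, 29.5%. This compares with 35.1% of all probe sets of that chip and 35.5% of those with a single gene symbol. By limma 15 of them were higher, against 32.5% of all, and 34 were lower, against 47.9% of all. On MOE430B 1 of 25 was above the limit, against 10.1% of all and 13.5% of those with a single gene symbol. That probe set was also the single one higher by limma, against 8.57% of all. There 20 were lower, against 73.3% of all. Members measured on MOE430B only were above the limit for 1 of 9, against 16.3% of the 5800 genes measured there only, and members with a probe set on MOE430A for 13 of 34, against 45.4% of 12393. With 1 probe set per gene in the annotation 5 of 19 members were above the limit, against 22.1% of all such genes. With 2 probe sets 5 of 16 were above, against 42.3%, and with 3 or more 4 of 8, against 59.1%. These shares are descriptions without a test.

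Abcg2, the carrier that defines the side population in bone marrow, was above the limit. Its 1 probe set, on MOE430A, read 1868, 1784 and 1532 on replicates 1 to 3. Each array lay clear of its limit, at 2.28, 2.27 and 1.86 times it. The mean was 1728 ± 175 (SD, n = 3), a log2 ratio to the limit of 1.09 ± 0.12 (SE; limma, adjusted p = 0.000127).

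Abcb1a and Abcb1b are the mouse counterparts of the human multidrug resistance gene ABCB1 and lie next to each other on chromosome 5, followed by Abcb4, which exports phosphatidylcholine into bile. The probe sets of Abcb1a fell on both sides of the limit. Its probe set 1419759_at read 1380.0, 1237 and 1178, above the limit on each array, with a log2 ratio of 0.64 ± 0.13 (SE; limma, adjusted p = 0.00297). Its other probe set, 1419758_at, read 685, 423 and 364, under the limit on each array, at -0.77 ± 0.27 (adjusted p = 0.0299). Abcb1a is therefore above the limit by 1 of 2 probe sets. Against the 99th percentile as limit that probe set still passed on all 3 arrays, but limma no longer called it (log2 ratio 0.14, adjusted p = 0.395).

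Abcb1b was not above the limit by either probe set. On MOE430A it read 494, 339 and 387, all under the limit, at -1.01 ± 0.26 on the log2 scale (SE; limma, adjusted p = 0.00973). On MOE430B it read 2819, 1783 and 2069, again under each array's limit, at -0.40 ± 0.27 (adjusted p = 0.181), which did not pass. That second value turned to 1.24 when the array median, which is far under the limit on MOE430B, took the limit's place. Abcb4 was above the limit with 1 probe set, at 1149, 2255 and 2842. Replicate 1 was the lowest, at 1.40 times its limit against 3.46 times in replicate 3. The log2 ratio was 1.27 ± 0.23 (SE; limma, adjusted p = 0.00204).

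**Figure D1:**
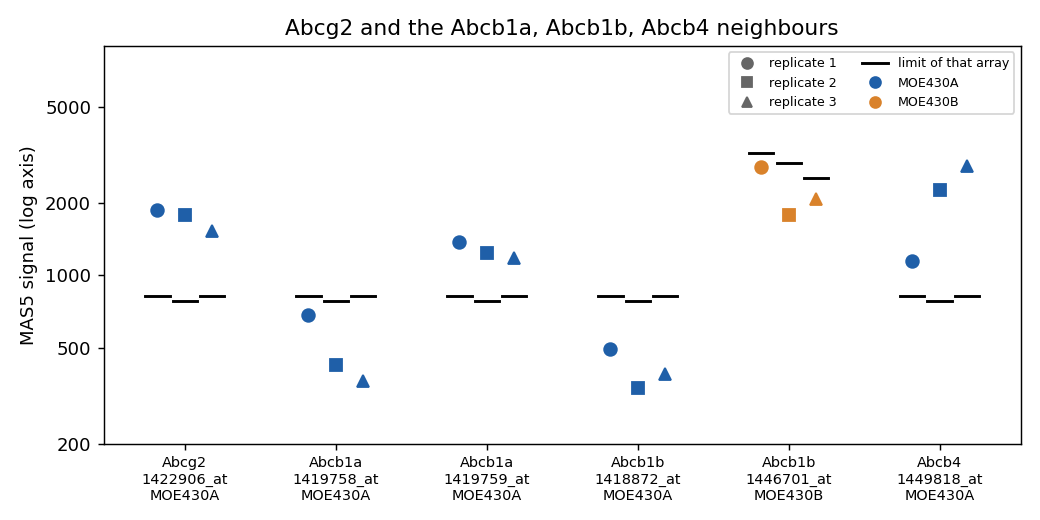
MAS5 signal (log axis) of every probe set of Abcg2, Abcb1a, Abcb1b and Abcb4 on the 3 arrays of its chip, with a black bar for the limit of that array. The Abcg2 points, at 1532 to 1868, and those of 1 Abcb1a probe set and of Abcb4 lie above their bars, while both Abcb1b probe sets lie below theirs.

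The windows before the annotated starts of these dye carriers are shown to compare their CG content. The probe sets do not tell start sites apart, so use of each start was not measured. RefSeq (GRCm38.p6) gave 3 starts for Abcg2 and 1 each for Abcb1a and Abcb1b. Each window holds the 250 bases before the start, 5′ to 3′, and capitals mark CG dinucleotides.
Abcg2 start 1, chr6:58584283-58584532, plus strand: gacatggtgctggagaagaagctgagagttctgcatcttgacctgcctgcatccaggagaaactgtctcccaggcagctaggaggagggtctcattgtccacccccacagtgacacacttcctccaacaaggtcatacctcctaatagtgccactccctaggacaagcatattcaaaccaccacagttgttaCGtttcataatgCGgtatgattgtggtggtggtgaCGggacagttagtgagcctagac
Abcg2 start 2, chr6:58596422-58596671, plus strand: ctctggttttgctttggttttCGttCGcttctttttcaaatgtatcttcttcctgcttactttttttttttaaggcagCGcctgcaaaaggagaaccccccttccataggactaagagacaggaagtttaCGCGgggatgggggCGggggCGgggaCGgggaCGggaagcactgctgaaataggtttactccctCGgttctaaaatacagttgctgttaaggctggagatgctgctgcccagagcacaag
Abcg2 start 3, chr6:58640296-58640545, plus strand: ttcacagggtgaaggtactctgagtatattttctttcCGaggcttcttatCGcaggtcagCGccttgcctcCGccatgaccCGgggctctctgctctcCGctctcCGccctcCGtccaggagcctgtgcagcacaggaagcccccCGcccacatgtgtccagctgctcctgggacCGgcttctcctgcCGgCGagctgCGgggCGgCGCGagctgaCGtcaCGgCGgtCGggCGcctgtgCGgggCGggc
Abcb1a, chr5:8566841-8567090, plus strand: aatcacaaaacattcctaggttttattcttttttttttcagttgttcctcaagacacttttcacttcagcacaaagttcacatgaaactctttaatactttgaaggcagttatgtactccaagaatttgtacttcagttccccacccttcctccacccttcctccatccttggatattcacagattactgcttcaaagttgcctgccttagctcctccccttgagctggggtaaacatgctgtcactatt
Abcb1b, chr5:8797897-8798146, plus strand: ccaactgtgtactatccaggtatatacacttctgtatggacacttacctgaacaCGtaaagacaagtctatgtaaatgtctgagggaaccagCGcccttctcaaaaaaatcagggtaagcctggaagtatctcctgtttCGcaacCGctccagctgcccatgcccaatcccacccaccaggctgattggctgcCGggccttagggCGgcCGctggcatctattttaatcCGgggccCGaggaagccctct

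The windows held 3, 10 and 23 CG dinucleotides at Abcg2 starts 1, 2 and 3, 0 at Abcb1a and 9 at Abcb1b. Over the 32851 promoter windows of the same length the median was 6, and 92.1% held at least 1. The GC box GGGCGG, searched on both strands, occurred 0, 2 and 4 times at the Abcg2 starts, 0 times at Abcb1a and 1 time at Abcb1b, and was found in 32.7% of all windows. The core motif ACGTG of hypoxia-inducible factors, searched on both strands, occurred 1 time, at Abcb1b, and is in 16.6% of all windows, while GCGTG, the core motif of the aryl hydrocarbon receptor complex, occurred in none of these windows and is in 28.2% of all. Each of these motifs contains a CG dinucleotide. A match describes the letters only, and no match says nothing of the factor. Of the 43 ABC genes 33 (76.7%) had a promoter entry, and no comparison over the family was made.

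Subfamily G had 4 of 6 genes above the limit. Abcg1, which exports cholesterol to lipoprotein particles, read 6306, 3698 and 4271 on MOE430A, with replicate 1 the highest. Its log2 ratio to the limit was 2.52 ± 0.14 (SE; limma, adjusted p = 2.69e-06). Its MOE430B probe set read 534, 80.4 and 306, far under that chip's limit, so the call rests on 1 of 2 probe sets. Abcg4, a sterol carrier related to Abcg1, was just above the limit with 1 of 2 probe sets, at 1037, 1009.8 and 930.4, and limma did not call it (adjusted p = 0.0929). Abcg5 and Abcg8 lie next to each other on chromosome 17, and their proteins join into a single sterol carrier. Abcg8 read 1119, 898 and 1078, at 1.14 to 1.36 times the limit and not called by limma (adjusted p = 0.0567). Abcg5 read 117, 106 and 274, under the limit on each array, at -2.42 ± 0.46 (SE; limma, adjusted p = 0.00237). The genes of these partner proteins thus lay on different sides of the limit. Abcg3, a rodent relative of Abcg2, exceeded the limit on 2 of 3 arrays with 1 probe set, at 935, 494 and 974, and was not above it.

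Subfamily C, the multidrug resistance proteins and sulfonylurea receptors, had 3 of 9 genes above the limit. Abcc1, which exports glutathione conjugates and leukotriene C4, was the single member with several probe sets that was above the limit by all of them. Its probe set 1452233_at read 3760.2, 3773 and 4137, which is 4.59 to 5.03 times the limit, with a log2 ratio of 2.26 ± 0.09 (SE; limma, adjusted p = 3.43e-07). Its other probe set read 1298, 1390.5 and 1594, at 0.81 ± 0.12 (adjusted p = 0.000803).

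Abcc5, an exporter of cyclic nucleotides, had 10 probe sets, of which 4 were above the limit. The highest against its limit, 1435684_at, read 4694, 6515 and 5769, with a log2 ratio of 2.79 ± 0.12 (SE; limma, adjusted p = 4.82e-07). The other 3 above the limit, all of shared sequence, had ratios of 0.77 to 1.88, and the remaining 6 lay at 0.01 to -4.74. Abcc4, an exporter of cyclic nucleotides and prostaglandins, was the single member above the limit on MOE430B, at 7803, 9473 and 6754. All 3 arrays were more than 2.4 times their limits, and the log2 ratio was 1.46 ± 0.16 (limma, adjusted p = 7.39e-06).

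The other 6 genes of subfamily C were not above the limit. Abcc10 exceeded it on 1 array of MOE430B, at 2889, 1805 and 3140.0. Abcc2 and Abcc3, exporters of conjugates in liver, read 23.9 to 316 and 121 to 308. Abcc8, the sulfonylurea receptor of pancreatic beta cells, read 119.6 to 477 on MOE430A and 210.2 to 1724 on MOE430B, Abcc12 at most 968 on MOE430B, and Abcc6 read 56.9, 97.0 and 64.7. Every probe set of these last 5 genes was lower than the limit by limma.

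Subfamily B had 2 of 8 genes above the limit, Abcb1a and Abcb4. Abcb6, a porphyrin carrier, read 699, 566 and 838, above the limit on 1 of 3 arrays. Abcb8, a mitochondrial carrier, was above it on replicate 2 alone, at 1599.8, against 343 and 233 on replicates 1 and 3. Abcb11, the bile salt export pump, read 642, 530.0 and 563, under the limit on each array without a limma call (adjusted p = 0.0562). Abcb10, a mitochondrial carrier linked to haem synthesis, had all 3 probe sets lower than the limit, the best of them at 485, 386 and 306. Abcb9, a lysosomal peptide carrier, read 207, 209 and 393 with its best probe set, and all 3 of its probe sets were lower.

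Subfamily A had 1 of 13 genes above the limit, and 7 of the 13 were measured on MOE430B only. Abca8a read 834, 1112 and 909, at 1.02 to 1.42 times the limit, and limma did not call it (log2 ratio 0.22 ± 0.16 SE, adjusted p = 0.233). It lies in a run of neighbours on chromosome 11 with Abca8b, Abca9, Abca6 and Abca5. Of these, Abca8b read 242, 50.8 and 298, and the best probe sets of Abca9, Abca6 and Abca5 reached at most 1106, 1043 and 1650.5 on MOE430B, all under their limits. Abca7, which moves phospholipids, exceeded the limit on replicate 2 alone, at 667, 1017 and 552. Abca12, a lipid carrier of the skin barrier, did so on replicate 3 alone, at 2230.3, 2711 and 2859.9 on MOE430B. The other 10 genes had every probe set lower than the limit by limma, among them Abca3, the lipid carrier of lung surfactant, at 619, 441 and 429.8 with its best probe set, and the retinal carrier Abca4 at 29.0, 77.7 and 40.6. Abca2, at 91.3, 127 and 93.8, Abca13 and Abca14 were also among them. Abca16 read 46.6, 82.7 and 777, a log2 ratio to the limit of -4.32 ± 0.81 (SE), which was -3.43 without replicate 1 and -5.63 without replicate 3.

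Subfamily D had 1 of 3 genes above the limit. Abcd3, the abundant carrier of the peroxisome membrane, read 4572, 4269 and 4422 on MOE430A, at 5.38 to 5.58 times the limit. Its log2 ratio was 2.45 ± 0.09 (SE; limma, adjusted p = 1.87e-07), while its MOE430B probe set read 307, 652 and 658, under that chip's limit. Abcd2, a carrier of very long chain fatty acids, had all 4 probe sets lower than the limit, the best of them at 147, 735 and 1959 on MOE430B (log2 ratio -2.28 ± 0.73 SE; limma, adjusted p = 0.011). Without replicate 1 that ratio was -1.19 and no longer called (limma, adjusted p = 0.0664). Abcd4, which acts in lysosomal cobalamin export, had both of its probe sets lower, at 64.2 to 589.

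The soluble subfamilies E and F had 3 of 4 genes above the limit, and the membrane subfamilies A, B, C, D and G 11 of 39. The share was 36.1% of all measured genes and 59.1% of those with 3 or more probe sets. Genes of E and F had a median of 3 probe sets and the other members a median of 2. Measured on MOE430B only were 0 of the 4 genes of E and F and 9 of the other 39. The difference was not tested. Abce1, which splits ribosomes after termination, read 1480.2, 1489 and 1548 with the shared-sequence probe set 1416015_s_at, with little spread and a log2 ratio of 0.90 ± 0.11 (SE; limma, adjusted p = 0.000302). Its probe set without shared sequence on MOE430A read 832, 1108 and 721, above the limit on 2 of 3 arrays. Abcf1, a translation factor, was above the limit by 2 of 6 probe sets. Its probe set 1420157_s_at read 3318, 3775 and 5429, with replicate 3 the highest and a log2 ratio of 2.34 ± 0.14 (SE; limma, adjusted p = 3.71e-06). Abcf3, of the same protein family, read 2465, 2282 and 2234 with the best of its 3 probe sets, at 1.52 ± 0.10 (SE; limma, adjusted p = 6.47e-06). Abcf2 was not above the limit by either probe set, the better one reading 738, 196 and 336, and its lower call was lost without replicate 2 or without replicate 3 (limma, adjusted p = 0.121 and 0.0839).

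**Figure D2:**
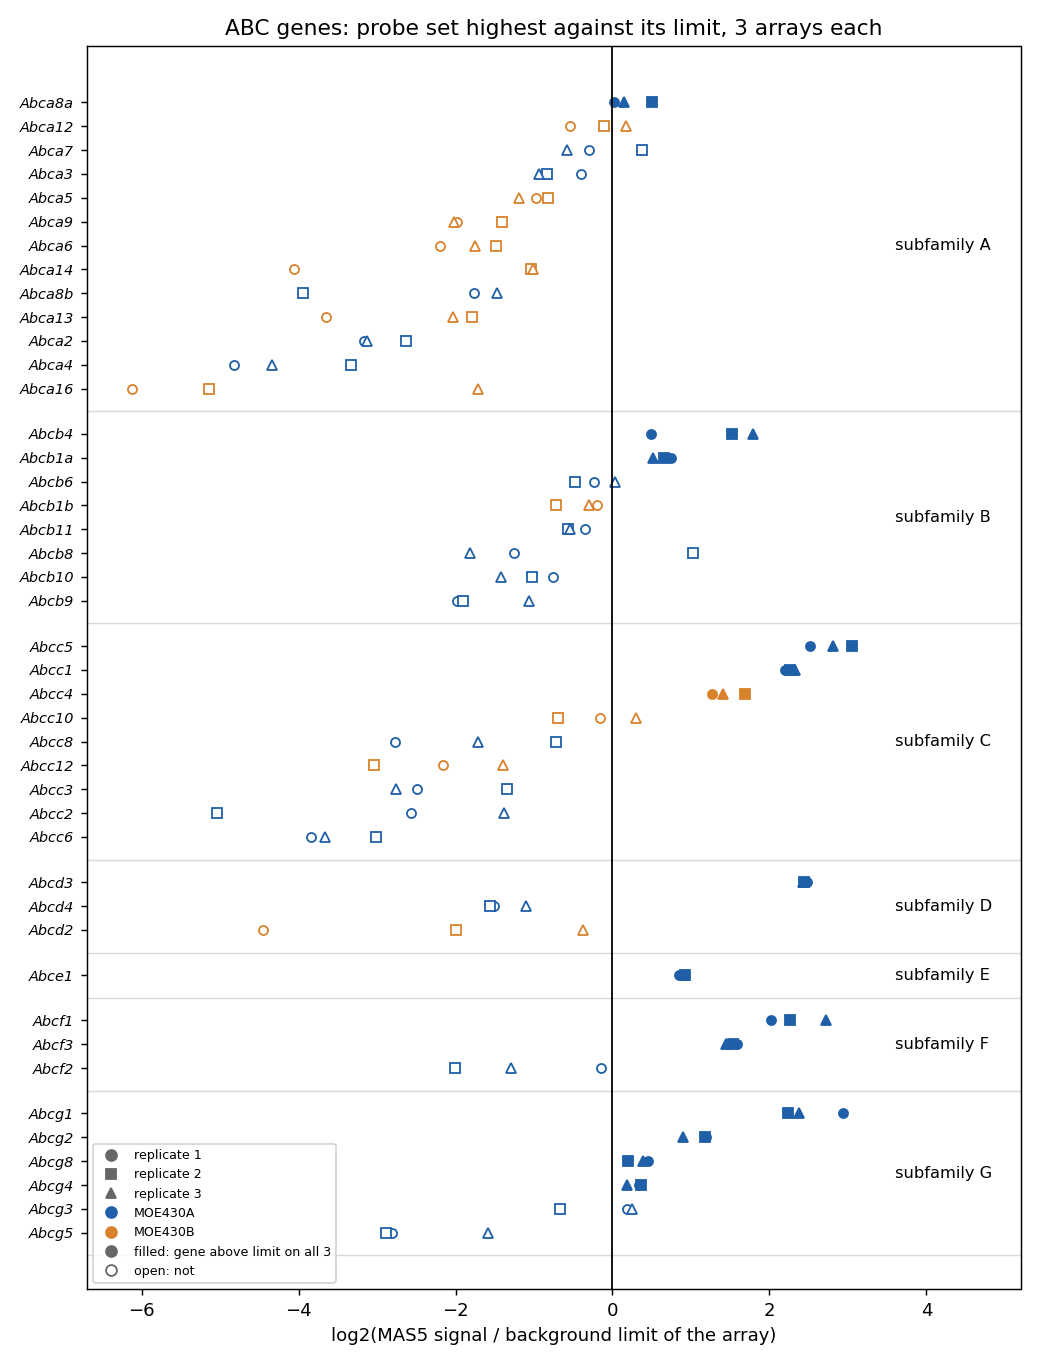
Log2 ratio of MAS5 signal to the limit of the array for the best probe set of each of the 43 genes, by subfamily, with 1 point for each of 3 arrays and filled points for genes above the limit. The 14 filled genes lie right of 0 on every array. Abcd3 and Abce1 have tight points, and Abca16 spreads over more than 4 units.

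Set side by side, the share of genes above the limit was 7.69% in subfamily A, 25.0% in B, 33.3% in C, 33.3% in D, 66.7% in F and 66.7% in G, with the 1 gene of E above it. Over all measured genes it was 36.1%, with 16.3% for those on MOE430B only and 45.4% for those with a probe set on MOE430A. Of the genes, 7 of 13 in A and 2 of 9 in C were measured on MOE430B only, and 0 in the other subfamilies. With MOE430A alone 1 of 6 genes in A and 2 of 7 in C were above the limit. By limma the counts of higher against lower probe sets were 0 and 15 of 18 in A, 2 and 9 of 15 in B, 7 and 12 of 22 in C, 1 and 7 of 8 in D, 1 and 1 of 3 in E, 3 and 6 of 11 in F, and 2 and 4 of 9 in G. Genes of F had a median of 3 probe sets, those of A a median of 1 and those of G a median of 1.5. The differences between subfamilies were not tested, since genes of a subfamily are not replicates. In G the count of 4 included Abcg4 and Abcg8, which limma did not call, and against the 99th percentile as limit 2 of 6 were above it.

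**Figure D3:**
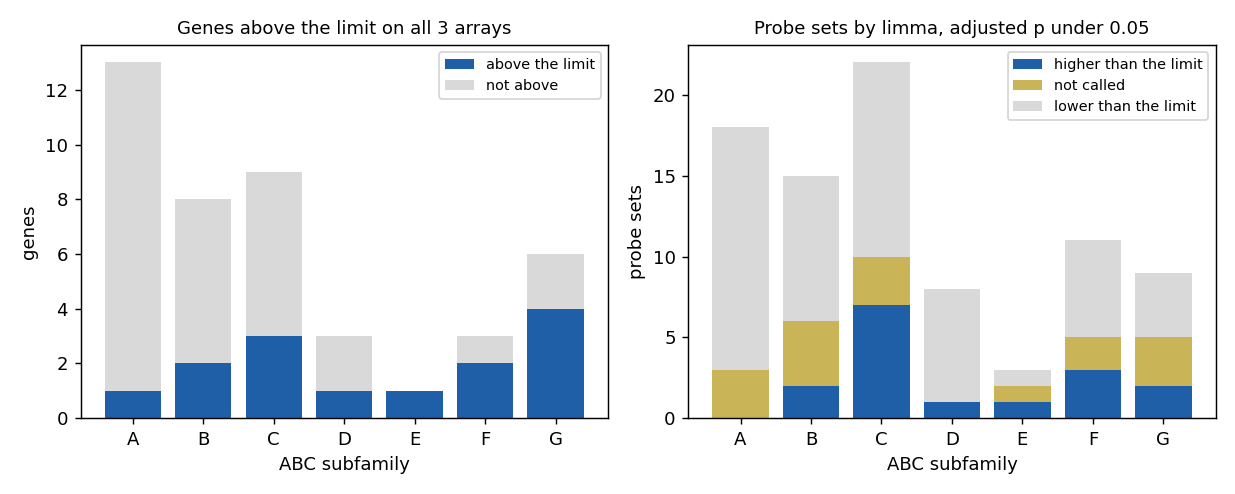
Left, number of ABC genes above and not above the limit in each subfamily. Right, number of probe sets that limma called higher than the limit, did not call, or called lower. Subfamily A has 1 of 13 genes above and 0 of 18 probe sets called higher, and C the most probe sets called higher, 7 of 22.

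Probe sets of the same gene disagreed in part of the ABC genes, and the shares over all measured genes are given beside theirs. Of 24 ABC genes with 2 or more probe sets 9 (37.5%) were above the limit, against 50.4% of the 9040 such genes on the chips. Of the 9, 1 was above it by all its probe sets (11.1%), against 16.9% of all 4555. For 7 of the 24 (29.2%), against 31.1% of all, limma called 1 or more probe sets higher and 1 or more lower than the limit, namely Abcb1a, Abcc5, Abcd3, Abce1, Abcf1, Abcf3 and Abcg1. Within Abcf1 the log2 ratios ranged over 2.34 to -2.98, and within Abcf3 over 1.52 to -1.89, each on MOE430A alone. Of the 4 genes above the limit on MOE430A that MOE430B also reads, 0 of 6 probe sets were above the limit on MOE430B. Of all probe sets on MOE430B 10.1% were above it, and of those with a single gene symbol 13.5%. The limit there averaged 2903 beside a mean array median of 924, against 809 beside 584 on MOE430A. Abce1 and Abcg4 were above it by shared-sequence probe sets alone, whose IDs end in _x_at, _s_at or _a_at and can match other transcripts of the gene or of other genes.

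**Figure D4:**
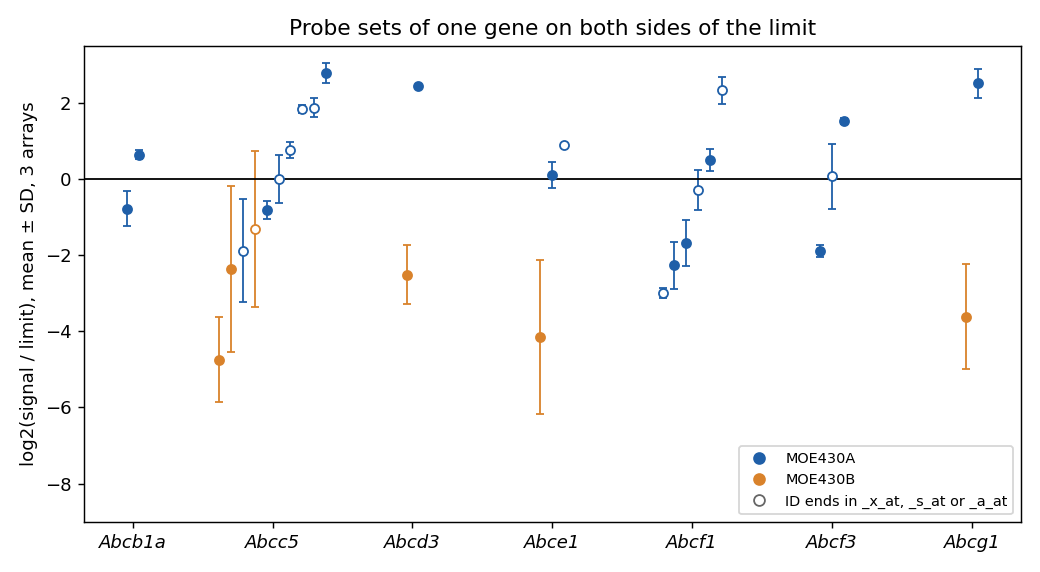
Log2 ratio of signal to limit, mean ± SD over 3 arrays, of each probe set of the 7 genes that limma called higher by some probe sets and lower by others, coloured by chip, with open points for shared-sequence IDs. Abcc5 spans 2.79 to -4.74 over 10 probe sets, and every MOE430B point lies under 0.

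Control probe sets at the 3′ end of Gapdh read a mean of 13.8 times those at the 5′ end on MOE430A and 15.4 times on MOE430B, and for actin 10.4 and 11.1 times. Where the member probe sets lie along their transcripts was not analysed, so the part of this ratio in the calls was not tested. Among replicates, the SD of log2 signal had a median of 0.16 over the 18 member probe sets above the limit on MOE430A, with a range of 0.04 to 0.68, against 0.19 over all probe sets above it. Abcb4 had the widest spread of the 18. Among member probe sets not above the limit the median SD was 0.58 on MOE430A and 1.21 on MOE430B, against 0.53 and 0.70 over all such probe sets. The highest of the 3 arrays was replicate 1 for 8 of the 18, replicate 2 for 3 and replicate 3 for 7, against 34.2%, 32.6% and 33.2% of all 7934 probe sets above the limit on that chip.

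Genes that work with these carriers were read in the same way, and a call by any 1 probe set again sufficed. Beside the counts of this and the following lists, 36.1% of all measured genes were above the limit. The share was 45.4% of genes with a probe set on MOE430A and 59.1% of genes with 3 or more probe sets. The list counts were not tested against these shares. Of ABC genes with other symbols, the peptide carrier subunits Tap1 and Tap2 were above the limit, at 2012 ± 606 and 1168 ± 73.8 (SD, n = 3), and the chloride channel Cftr was not, at 49.4 ± 40.1. Of 8 TAP peptide loading partners 7 were above it, including Tapbp at 13541 ± 552, B2m at 40957 ± 6809.7 and Calr at 53962 ± 6230.3, and the proteasome subunit Psmb9 was not. Canx, Pdia3, Psmb8 and Psmb10 were the others.

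Peroxisomal import genes, which place ABCD proteins in their membrane or import matrix enzymes, were above the limit for 3 of 5 measured. Pex19, the receptor that Abcd3 uses, read 1524 ± 94.8 (SD, n = 3), and Pex5 and Pex14 were the others, at 1589.9 ± 169.8 and 2096 ± 243, while its docking factor Pex3 read 604 ± 91.6 and was not. Iron-sulfur cluster and haem genes were above it for 6 of 6 measured, including Iscu at 3248 ± 199, Nfs1 at 2482 ± 245 and Isca1 at 2592 ± 283, together with Glrx5, Alas1 and Fech.

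Of 11 measured regulators of drug efflux genes 7 were above the limit. Hif1a, the hypoxia factor, read 21824 ± 324 and Nfe2l2, the factor of the oxidative stress response, 12457 ± 2317 (SD, n = 3). Arnt was above the limit by 1 of 5 probe sets, at 4153 ± 369 on MOE430B. Epas1, Keap1, Rxra and Ybx1 were also above it, by 1 probe set each, Epas1 and Rxra without a limma call. With MOE430A alone or with 1 probe set per gene the count was 5 of 11. The aryl hydrocarbon receptor Ahr, at 724 ± 112, and the nuclear receptors Nr1i2, Nr1i3 and Nr1h3 were not above it.

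Membrane anchors of transporters were above the limit for 6 of 7. Ezr read 4129 ± 621, Rdx 3302 ± 200.2 and Msn 18210.4 ± 1351 (SD, n = 3), and Slc9a3r1, Slc9a3r2 and Cav1 were the others, while Pdzk1, a scaffold of kidney and gut epithelium, was not. All 7 glutathione synthesis and conjugation genes were above it, including Gclc at 2431 ± 294, Gclm at 1764 ± 231 and Gstp1 at 36174 ± 1344, with Gstm1, Gsta4, Mgst1 and Gsr. Abcc1 exports the conjugates that such enzymes make.

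On a list of carriers of other families and the vault protein Mvp, 4 of 6 genes measured were above the limit. They were the nucleoside carrier Slc29a1 at 1754 ± 124 (SD, n = 3), Slco3a1, the prostaglandin carrier Slco2a1, and Mvp. The multidrug and toxin extruder Slc47a1, at 108 ± 72.1, and Slco2b1, at 1618 ± 1632 on MOE430B, were not above it. Of the potassium channel subunits that pair with sulfonylurea receptors, Kcnj11 was above the limit by 1 of 2 probe sets. That probe set read 6625 ± 803 on MOE430B. Of the receptors, Abcc8 was not above the limit, and Abcc9 was left out of the members. Kcnj8 read 871 ± 127 on MOE430A and was not above the limit, although it was without replicate 2. With MOE430A alone or with 1 probe set per gene, 0 of these 2 subunits were above it.

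Abcg2 and Abcb1a are also known from endothelium, so marker genes of the cell types that a muscle sort can hold were read beside them. In RNA from a mixed culture, fewer cells of a type and less RNA per cell cannot be told apart. Of all measured genes 36.1% were above the limit, and of those with a probe set on MOE430A 45.4%. Fibroblast and mesenchymal progenitor markers were above the limit for 8 of 8, among them Pdgfra, Dcn and Col1a2, under each alternative tried. Endothelial markers were above it for 5 of 10, namely Kdr, Cldn5, Esam, Egfl7 and Robo4, the last without a limma call, while Pecam1, Cdh5, Tek, Tie1 and Emcn were not. With the 99th percentile as limit the endothelial count was 2. Kdr read 1841 ± 326 (SD, n = 3), which is 2.25 times the limit. Cdh5 read 908 ± 200, on average 1.11 times the limit, but did not pass it on all 3 arrays. Pecam1 read 164 ± 81.3 and Tie1 25.5 ± 10.8, which for Tie1 is 0.0298 of the limit. Pericyte and smooth muscle markers were above it for 4 of 7, namely Rgs5, Pdgfrb, Notch3 and Acta2, while Cspg4, Myh11 and Tagln were not. Without probe sets of shared sequence that count was 1 of 7. Macrophage and leukocyte markers were above it for 4 of 8, namely Csf1r, Adgre1, Lyz2 and Cd14, while Ptprc, Cd68, Tyrobp and Itgam were not. That count was 6 of 8 without replicate 1, when 2 of 3 arrays sufficed or with the array median as limit. Myogenic markers were above it for 1 of 7, Chrna1, an acetylcholine receptor subunit, while Pax7, Myf5, Myod1, Myog, Cdh15 and Des were not. The myogenic count was 2 without replicate 1 or without replicate 2, and 3 when 2 of 3 arrays sufficed or with the array median as limit. The list of surface genes for muscle stem cells and progenitors had 4 of 4 above it, namely Cd34, Kit, Cd44 and Itgb1, Kit without a limma call. Which cells of the culture gave these 4 signals was not tested. The part of any of these cell types in the signals of Abcg2, Abcb1a or the other ABC genes was not tested.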

How the data were processed

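Total RNA of 6 arrays, replicates 1 to 3 on MOE430A and on MOE430B, was measured. The authors deposited linear signal intensity per probe set. The submitters' processing notes name MAS5, whose version is not given in the sources used here. The 2% trimmed mean was 1500 or 1501 on every array, so the authors scaled each array, and each chip, to the same level. Probe sets were named from the platform annotation, with symbols updated through Entrez numbers in RefSeq (GRCm38.p6), which held 20364 of 20393 single-gene probe sets on MOE430A and 14499 of 14674 on MOE430B. Signals were set against the 95th percentile of probe sets of genes foreign to muscle on each array. limma 3.58.1 in R 4.3.3 tested log2 signal minus log2 limit against 0 (intercept only, intensity trend, all probe sets but 64 controls per chip, Benjamini-Hochberg adjustment per chip, called under 0.05). It was also run on simulated ratios for MOE430A, with nearly all probe sets placed at or under the limit, unlike on the real chip. That run cannot speak to MOE430B or to error in the limit, and no result here rests on it. Python 3.11.15, numpy 2.4.6, pandas 2.3.3 and matplotlib 3.10.9 did the rest. A gene's level is that of its probe set with the highest mean log2 ratio to the limit. Genes named are Abcg2, Abcb1a, Abcb1b, all members above the limit, the lowest of each subfamily, and of related lists those above the limit and the first 3, and other members were named to account for all 43. Marker lists are summarised by the same counts. The members and lists were chosen with earlier results of these data known. Alternatives changed the limit, the call rule, the probe sets used, the scaling, the limma settings and the replicates. The number of arrays, 3 per chip, limits the precision.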

Additional observations from a re-analysis of the deposited data

How the results depend on the processing

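ABC genes above the limit numbered 14 of 43. The count ranged from 10 with the 99th percentile as limit (27.0% of all measured genes) to 19 with the array median (53.8%). It was 15 when 2 of 3 arrays sufficed (42.3%) and 14 to 15 when 1 replicate was left out (37.6% to 38.6%). Without probe sets of shared sequence it was 12 of the 40 members then measured (30.5%), and with MOE430A alone 13 of 34 (42.7%). The share of all genes moved in the same settings. Of the 14 genes, 9 stayed above the limit in every alternative in which they were measured. With the 99th percentile Abca8a, Abcb4, Abcg4 and Abcg8 lost the call, which left 0 genes in subfamily A, 1 in B and 2 in G. With the array median as limit there were 3 in A and 4 in B, and Abcb1b gained the call. Without probe sets of shared sequence Abce1 lost it, which left 0 in subfamily E, and Abcg4 was not measured. By limma 16 member probe sets were higher than the limit, 12 with the 99th percentile and 15 to 16 under the other alternatives, and 54 were lower, 47 to 64 under the other alternatives and 11 once probe sets under the array median on all arrays were left out of the fit, since that step removes most of them. The lower calls of Abcd2 and Abcf2 were lost without the intensity trend (limma, adjusted p = 0.0601 and 0.0656). Abcd2 also lost it without replicate 1, and Abcf2 without replicate 2 or 3 and under the low-signal filter. The sign turned with the 99th percentile for Abca8a, Abcg8 and Abcg4, whose log2 ratios to the limit became -0.28, -0.16 and -0.21, and with the array median for Abcb1b, at 1.24. No paired analysis was possible because there is 1 condition and no result comes from a test between the chips, which share the replicate numbers. On the related lists, without probe sets of shared sequence, 4 of 5 peptide loading partners and 3 of 5 membrane anchors still measured were above the limit. For the list of other carriers and Mvp it was 2 of 5. With the 99th percentile 4 of 11 efflux regulators were above it. On MOE430B 44 probe sets set the limit.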
